A study of Mus musculus with 4 samples.

Results

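CD45+ leukocytes of subcutaneous KPC tumours were compared between mice that received the LTbR agonist alone and untreated mice. The cells were taken by the library number that ends each barcode, and were kept when they had 300 to 5000 detected genes and at most 6% mitochondrial unique molecular identifiers (UMIs, the counted RNA molecules). This gave 7147 cells of the LTbR agonist library and 6783 cells of the untreated library, 13930 of the 23011 cells that passed these limits in the 4 libraries of the series. KPC is a pancreatic cancer line from mice with engineered pancreatic tumours, and by the study's methods it was grown under the skin of adult male C57BL/6 mice. The agonist was the antibody 4H8, an activator of the lymphotoxin-β receptor (LTbR) that was given repeatedly into the peritoneum. The untreated mice are described without a control antibody. The tumours of a group were pooled before live CD45+ cells were sorted, so that each group is 1 library with no values per animal. Tumour cells, fibroblasts and endothelial cells, which carry much of the receptor in tissue, were not collected by the sort.

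LTbR is a receptor of the tumour necrosis factor family. Its ligands are the membrane-bound lymphotoxin made of Lta and Ltb, supplied mainly by lymphocytes, and LIGHT (Tnfsf14). The receptor acts through both arms of NF-kB, and it is known for the building of lymph nodes and of lymphoid aggregates in inflamed tissue, where stromal and myeloid cells respond to lymphotoxin from B and T cells. It also maintains dendritic cells in lymphoid organs. The comparison asked what leukocytes of a tumour look like when the receptor is engaged without a STING agonist.

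The LTbR agonist library held 56877525 UMIs and the untreated library 60770280 before filtering, with medians of 5750 and 7094 UMIs per kept cell. Barcodes above the mitochondrial limit were 5.99% of the LTbR agonist library (5.48 to 6.54) and 2.71% of the untreated library (2.35 to 3.11), and 52 barcode sequences occurred in both sets of kept cells. The libraries with both agonists and with the STING agonist alone form a second pair, which shares no library with this comparison and differs by the LTbR agonist as well. Barcodes above the mitochondrial limit were also more frequent with the LTbR agonist in that pair, at 6.78% against 2.68%. Intervals of shares and counts are 95% intervals (exact Clopper-Pearson for shares, exact Poisson for counts). Those of ratios and log2 ratios set the lower bound of 1 library against the upper bound of the other. Ratio intervals formed in this way are wider than 95% intervals. A ratio interval that includes 1 therefore does not show that the shares are equal. Both kinds of interval are used below. They cover counting error only, and with 1 library per group no spread between pools of tumours was available and no test was made.

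Each cell was given a class when it carried at least 2 markers and 3 UMIs of that class and not of another. Macrophages and monocytes, gated as a single class by markers that include Csf1r, Adgre1, Fcgr1, C1qa and C1qb, made up 43.9% of untreated cells (2976 cells) and 35.5% with the LTbR agonist (2537 cells), a ratio of 0.809 (0.763 to 0.858). Dendritic cells were 4.82% of untreated cells (327 cells) and 3.19% with the agonist (228 cells), a ratio of 0.662 (0.522 to 0.838). Both classes were thus a smaller part of the sorted cells after the agonist.

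Lymphocytes stood the other way. Natural killer (NK) cells were 3.35% of untreated cells (227 cells) and 5.72% with the agonist (409 cells), a ratio of 1.71 (1.37 to 2.14). B cells were 0.752% (51 cells) and 1.85% (132 cells), a ratio of 2.46 (1.57 to 3.90). T cells were 21.8% and 25.3% with a ratio of 1.16 (1.06 to 1.26), which was 0.971 when every cell was thinned to 1000 UMIs before its class was set, so no direction is read from it. Neutrophils were 2.89% (196 cells) and 4.41% (315 cells), a ratio of 1.53 (1.19 to 1.96). Cells without a class were 15.6% and 16.7%, and cells with markers of several classes 5.82% and 6.30%. Shares of 1 total are tied to each other, so a larger class lowers the rest.

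In the second pair the ratio of both agonists to the STING agonist was 0.798 for macrophages or monocytes, 0.835 for dendritic cells (0.584 to 1.20) and 1.11 for NK cells (0.832 to 1.48). The lower macrophage share was therefore seen in both pairs. B cells were 8.44% with both agonists (450 cells) and 0.347% with the STING agonist (13 cells), a ratio of 24.3. The larger B cell share was thus seen in both pairs as well. T cells had a ratio of 1.13 (1.04 to 1.24) in the second pair. As no direction is read from the T cell ratio to untreated, none is read for T cells across the pairs. For dendritic and NK cells the interval of the second pair included 1. Neutrophils differed in direction, with a ratio of 0.144 in the second pair.

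**Figure D1:**
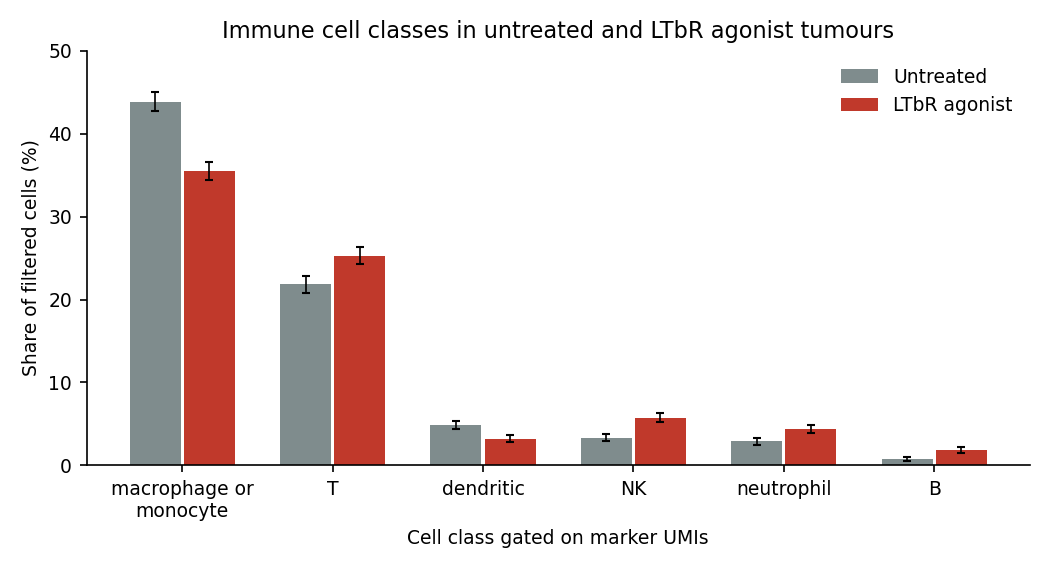
Share of filtered cells (%) in 6 classes gated on marker UMIs, for the untreated library (grey) and the LTbR agonist library (red), with exact 95% intervals of counting error as error bars. Macrophages or monocytes and dendritic cells were a smaller share with the agonist, and NK, neutrophil and B cells a larger one.

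The receptor itself was carried by myeloid cells. Expression is given as the number of UMIs of a gene scaled to the UMI total of its class (CPM), and differences as the log2 ratio of LTbR agonist to untreated after 10 CPM was added to each. Ltbr was at 59.4 CPM in untreated macrophages or monocytes and 54.1 CPM with the agonist, a log2 ratio of -0.11 (-0.24 to 0.01). It was at 29.4 and 25.7 CPM in dendritic cells and at 29.4 and 25.2 CPM in neutrophils, and at 0.82 and 1.14 CPM in T cells. A Ltbr UMI was found in 39.3% of untreated macrophages or monocytes and 36.2% with the agonist, against 0.541% and 0.499% of T cells. The receptor's level thus differed little between the libraries in the class where it was counted best.

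The ligand chain Ltb was counted mainly in lymphocytes and neutrophils. It was at 397 CPM in untreated T cells and 514 CPM with the agonist, a log2 ratio of 0.37 (0.28 to 0.45). In B cells it was at 216 and 336 CPM, a log2 ratio of 0.61 (0.10 to 1.13), and in NK cells at 166 and 165 CPM. Neutrophils held 218 and 181 CPM. LIGHT (Tnfsf14) was at 12.2 CPM in untreated macrophages or monocytes and 7.57 CPM with the agonist, a log2 ratio of -0.34 (-0.52 to -0.16). Its other receptor, Tnfrsf14, was at 14.0 and 9.70 CPM there, a log2 ratio of -0.29. Ltb was higher with the agonist in T and B cells, and LIGHT and its second receptor were lower in macrophages or monocytes.

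Genes of the NF-kB pathway, through which the receptor signals, stayed close to their untreated level. Of the 19 list members counted in macrophages or monocytes none reached a 2-fold difference, and their log2 ratios ran from -0.23 to 0.31 with a median of -0.11. Nfkb2, the precursor of the p52 subunit of the noncanonical arm, was at 58.1 and 66.5 CPM (log2 ratio 0.17, 0.05 to 0.29), and its partner Relb at 57.4 and 47.3 CPM (-0.23, -0.36 to -0.10). In T cells 17 of 19 members were above 0, with a median of 0.14, against 54.8% of all genes and a median of 0.02. In the second pair the list had medians of -0.16 in T cells and 0.07 in macrophages or monocytes.

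Among the largest differences in macrophages or monocytes were a higher level of genes known from alternative activation, the state that interleukin-4 and interleukin-13 induce through STAT6, and a lower level of genes that interferon-γ induces. The promoters of Retnla and Ccl17, of the interferon-induced Gbp2 and of the MHC class II gene H2-Aa are shown because they hold a motif known from such responses. Each stretch holds the 250 bases before the start site in the sense of the gene, from RefSeq on GRCm38.p6, and capitals mark the motif matches. Retnla (resistin-like α, secreted by alternatively activated macrophages) lies on the plus strand with its stretch at chr16:48842359-48842608, and Ccl17 (a ligand of CCR4, which draws helper and regulatory T cells) on the plus strand at chr8:94810203-94810452.

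Retnla: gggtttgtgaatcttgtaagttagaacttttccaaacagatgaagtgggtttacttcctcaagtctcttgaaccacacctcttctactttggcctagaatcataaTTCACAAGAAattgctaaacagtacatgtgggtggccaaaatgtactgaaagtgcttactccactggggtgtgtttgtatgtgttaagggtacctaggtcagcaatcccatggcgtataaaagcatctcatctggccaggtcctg

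Ccl17: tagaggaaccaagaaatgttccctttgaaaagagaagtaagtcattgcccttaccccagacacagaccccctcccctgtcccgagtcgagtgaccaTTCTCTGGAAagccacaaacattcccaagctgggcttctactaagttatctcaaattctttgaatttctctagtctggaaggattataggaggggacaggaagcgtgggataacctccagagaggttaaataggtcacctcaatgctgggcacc

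Gbp2 (a guanylate-binding protein) lies on the plus strand with its stretch at chr3:142620413-142620662, and H2-Aa (the α chain of the MHC class II molecule I-A) on the minus strand at chr17:34287824-34288073.

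Gbp2: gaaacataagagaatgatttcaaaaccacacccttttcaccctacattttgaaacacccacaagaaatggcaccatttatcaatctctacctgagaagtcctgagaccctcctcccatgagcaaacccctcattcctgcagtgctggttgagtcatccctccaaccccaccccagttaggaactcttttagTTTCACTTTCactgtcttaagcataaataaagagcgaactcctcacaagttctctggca

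H2-Aa: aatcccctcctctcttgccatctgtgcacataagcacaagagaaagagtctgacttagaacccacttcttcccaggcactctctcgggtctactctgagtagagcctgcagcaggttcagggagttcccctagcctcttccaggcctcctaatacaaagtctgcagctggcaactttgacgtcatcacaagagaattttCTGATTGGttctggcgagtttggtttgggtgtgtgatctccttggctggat

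The STAT6-type palindrome (TTC and GAA with any 4 bases between them) was found 145 bases before the start of Retnla and 154 bases before that of Ccl17, and 5.86% of 27025 promoters of this length held it. It was not found in those of Mgl2 and Chil3, the other alternative activation genes searched. The interferon-stimulated element (GAAA and GAAA with 2 bases between) was found in Gbp2 at 59 bases as its reverse complement (3.04% of promoters) and in Fcgr4 at 73 bases, and the promoter of Ifitm1 held none of these motifs. The inverted CCAAT box CTGATTGG, part of the promoters of MHC class II genes, was found at 51 bases in H2-Aa (4.07%) and at 65 bases, as its reverse complement, in Cxcl9. Each motif was searched on both strands in 9 promoters, and the kappa-B-type element (GGG and TTCC with 3 bases between, in 4.60% of promoters) was in none of them. Only this spelling of the kappa-B-type element was searched, so its absence does not cover other forms. A match is a run of letters, and binding was not measured.

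Retnla was at 17.3 CPM in untreated macrophages or monocytes and 235 CPM with the LTbR agonist, a log2 ratio of 3.17 (3.05 to 3.29), the highest among genes named here for this class. A Retnla UMI was found in 0.571% of untreated cells and 6.58% with the agonist, at class medians of 9056.5 and 8688 UMIs. In T cells, which are not known to make it, the shares were 0.270% and 3.71% at medians of 5562 and 4772 UMIs, so that a large part of the macrophage share with the agonist lies at the level seen in a class that should lack the gene. The 10 cells with most UMIs held 98.6% of the untreated and 61.1% of the agonist Retnla UMIs. Few cells therefore carried most of it in either library.

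Other members of the alternative activation list were higher as well. Mgl2, a galactose-binding lectin, was at 42.4 and 120 CPM (log2 ratio 1.31, 1.19 to 1.42) and was found in 7.39% and 20.4% of cells, against 0.405% and 0.720% of T cells. Ccl24, an eosinophil attractant, was at 107 and 266 CPM (1.24, 1.16 to 1.32), and Chil3, the chitinase-like protein Ym1, at 86.8 and 210 CPM (1.18, 1.09 to 1.27). Chil3 is also in the list of monocyte genes. Cells with monocyte genes and no C1q were 36.6% of the untreated and 42.8% of the agonist class (20.9% and 21.8% after thinning). Their part in the higher Chil3 was not tested. Ccl17 was at 1.59 CPM in untreated cells (46 UMIs) and 39.1 CPM with the agonist (935 UMIs), a log2 ratio of 2.08 (1.94 to 2.21). It was found in 0.571% of untreated cells and 2.72% with the agonist, and 10 cells held 84.8% and 69.4% of its UMIs, so that few cells carried most of Ccl17 as well.

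Not every gene of the programme took part. Of the 22 members of the list 15 were counted well enough (at least 100 UMIs in 1 library), 13 of them were above 0, and 5 were at least 2-fold higher. Across all 9617 genes counted in the class, 24 were at least 2-fold higher (0.25%), 5 at least 2-fold lower (0.052%), and 29 in either direction (0.302%). The list's median was 0.46, against 0.00 for all genes. Arg1, the arginase used as a textbook mark of this state, was at 1734 and 1640 CPM (log2 ratio -0.08, -0.11 to -0.05), and the mannose receptor Mrc1 at 92.4 and 104 CPM (0.16, 0.06 to 0.26). The 5 members past 2-fold were Retnla and the 4 genes given after it, and arginase stood near its untreated level. The 7 dendritic cell markers, a class that also makes Ccl17 and Mgl2, summed to 20.6 CPM in untreated macrophages or monocytes and 17.2 CPM with the agonist. The gate itself holds this sum low, and the part of dendritic cells in the higher Ccl17 and Mgl2 was not tested.

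The interferon-γ response was lower. Of 17 list members 16 were counted, 15 were below 0, 14 had intervals below 0, and none was past 2-fold, with a median of -0.36. Gbp2 was at 601 CPM in untreated cells and 333 CPM with the agonist (log2 ratio -0.83, -0.88 to -0.78), and Gbp4, of the same family, at 105 and 58.2 CPM (-0.75, -0.87 to -0.64). The chemokine Cxcl10 did not share this, with 865 and 851 CPM (-0.02, -0.06 to 0.01). Members of the type I interferon list were closer to their untreated level, with a median of -0.13 over 23 genes.

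Genes of antigen presentation were lower to a small extent. All 11 genes of the MHC class II list were below 0, with log2 ratios from -0.55 to -0.13. Their median was -0.28, against -0.08 in the second pair. The list's median was -0.18 in cells with C1q UMIs and no monocyte genes and -0.50 in cells with neither. H2-Aa was at 4746 and 3912 CPM (log2 ratio -0.28, -0.30 to -0.26), and the invariant chain Cd74 at 12994 and 11147 CPM (-0.22, -0.23 to -0.21). Fcgr4, an activating receptor for IgG, was at 381 and 181 CPM (-1.03, -1.10 to -0.96). Ifitm1, an interferon-induced membrane protein, was at 3442 and 1519 CPM (-1.17, -1.20 to -1.15).

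The lowest ratio belonged to Ccl5, the chemokine RANTES that draws T and NK cells. It was at 1544 CPM in untreated macrophages or monocytes and 336 CPM with the agonist, a log2 ratio of -2.17 (-2.21 to -2.12). A Ccl5 UMI was found in 51.9% of untreated cells and 25.5% with the agonist, and in 33.4% and 12.5% after thinning to 1000 UMIs. In neutrophils, at medians of 2183.5 and 2077 UMIs, the shares were 7.65% and 7.30%, and in B cells 5.88% and 3.79%. The macrophage shares were above these in both libraries.

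Ccl5 was lower in every kind of cell within the class. Cells with C1q UMIs and no monocyte genes had a log2 ratio of -2.14, those with monocyte genes and no C1q -2.13, those with both -2.01 and those with neither -2.10. Ccl24 was higher in all 4, with log2 ratios from 0.97 to 2.40. Retnla was at 74.2 CPM untreated and 609 CPM with the agonist in the C1q cells, 0.198 and 32.9 CPM in the monocyte cells, 0.833 and 168 CPM in cells with both, and 0.764 and 295 CPM in cells with neither.

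**Figure D2:**
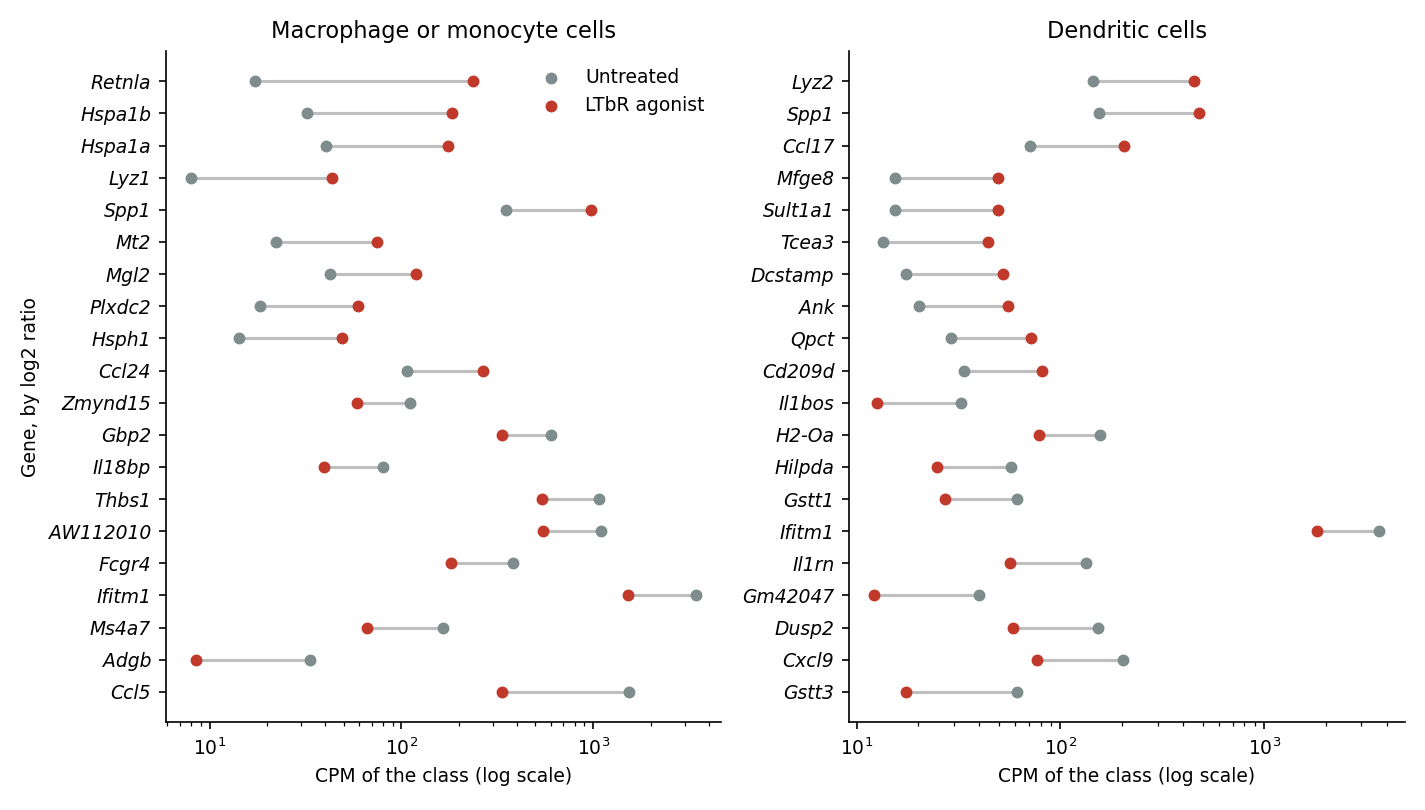
CPM (log scale) of the 10 highest and 10 lowest genes by log2 ratio in macrophages or monocytes (left) and dendritic cells (right), with the untreated library in grey and the LTbR agonist library in red, 1 library each. In macrophages or monocytes Retnla went from 17.3 CPM untreated to 235 CPM with the agonist and Ccl5 from 1544 to 336 CPM, and Ifitm1 stood to the left with the agonist in both panels.

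Genes of tissue and lipid-handling macrophages moved in both directions, with a median of 0.12 over 20 counted members. Ms4a7, a membrane protein of tissue macrophages, was at 166 and 66.3 CPM (log2 ratio -1.20, -1.30 to -1.10), Apoe (apolipoprotein E) at 2512 and 1441 CPM (-0.80, -0.82 to -0.77) and the lipid receptor Trem2 at 138 and 81.3 CPM (-0.70, -0.80 to -0.60). Spp1 (osteopontin) was at 350 and 979 CPM (1.46, 1.41 to 1.51), and the adhesion molecule Vcam1 at 3.25 and 16.9 CPM (1.02, 0.85 to 1.18). The list therefore had no common direction. The inflammatory mediators likewise had a median near 0 (-0.05 over 20 members), with Il1b at 5090 and 4083 CPM (-0.32, -0.33 to -0.30).

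Heat shock genes were among the highest ratios and are also known to respond to tissue dissociation. Hspa1b was at 32.0 and 183 CPM (log2 ratio 2.20, 2.08 to 2.31) and Hspa1a at 40.5 and 176 CPM (1.88, 1.77 to 1.99). These genes are close copies whose reads can be split between them, as can those of Lyz1 and Lyz2. Of the 23 members of the heat shock and dissociation list 4 were at least 2-fold higher and none lower, with a median of 0.26, while the immediate early gene Fos was below 0 at -0.60. Markers of tumour epithelium summed to 62.1 CPM in untreated macrophages or monocytes and 104 CPM with the agonist, and the 4 NK markers to 5.92 and 4.01 CPM. The gate itself holds the NK sum low. The lower depth and higher mitochondrial share went with the LTbR agonist in both pairs of libraries. The part of dissociation, free RNA and these library differences in the results above was not tested.

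When the LTbR agonist was added to the STING agonist, 18 of the 20 named macrophage genes had the same direction as with the agonist alone, against 68.3% of all 8563 genes counted in both pairs. All 10 of the lowest had it, with log2 ratios from -1.33 for Ifitm1 to -0.18 for Zmynd15, and Ccl5 at -0.73. Retnla had 3.61, Chil3 2.12, Mgl2 2.00 and Ccl24 1.22 in the second pair, and the alternative activation list a median of 1.09. The exceptions were Hspa1a (-0.17) and Spp1 (-0.49), and Hspa1b had 0.53. The lower Ccl5, Fcgr4 and Ifitm1 and the higher Retnla, Mgl2 and Ccl24 thus occurred in both pairs of libraries, and the higher Hspa1a and Spp1 in 1 of them.

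**Figure D3:**
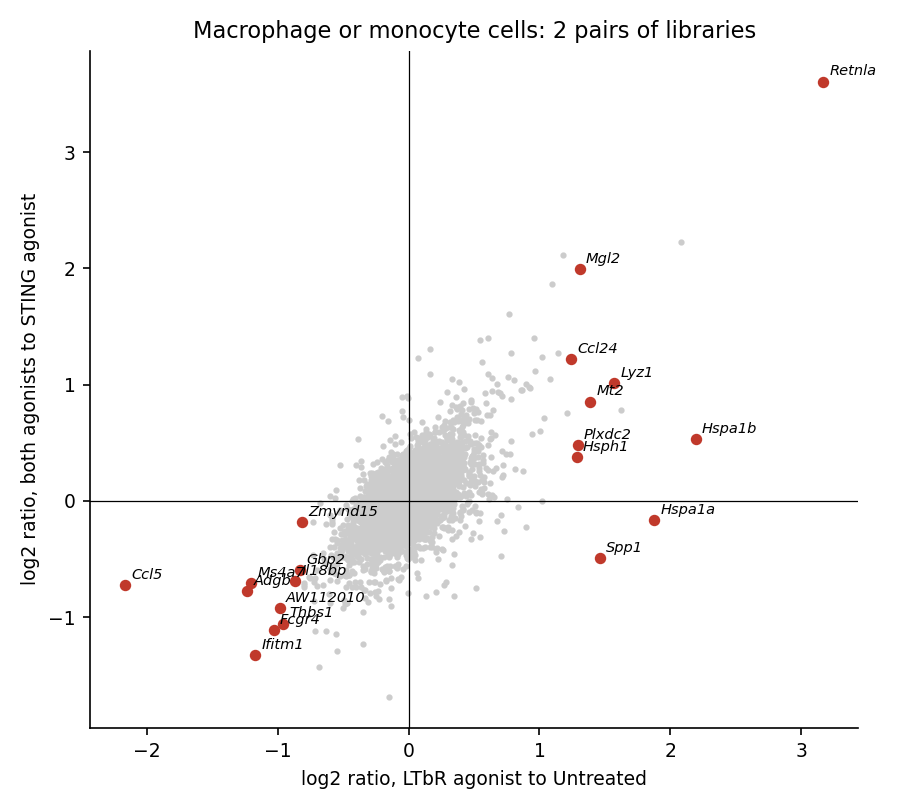
Log2 ratio of LTbR agonist to untreated (x axis) against log2 ratio of both agonists to the STING agonist (y axis) for the 20 named genes of macrophages or monocytes, each point 1 gene and each ratio from 1 library a side. Of the 20 genes 18 lie in the quadrants of equal sign, and Spp1 and Hspa1a lie below the zero line of the second pair.

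Dendritic cells take up antigen in the tissue, and their mature form carries it to T cells. The share of mature cells among them was close in the libraries. Mature cells (set by UMIs of Ccr7, Fscn1 and Ccl22) were 45.9% of untreated and 45.6% of agonist dendritic cells (ratio 0.994), and type 1 conventional cells (cDC1) 25.1% and 21.5% (ratio 0.857). Cells with Cd209a, of the type 2 or monocyte-derived kind, were 9.17% and 20.2% (ratio 2.20, 1.18 to 4.14). The ratio was 1.45 after thinning (0.51 to 4.15, 15 cells on each side) and 1.37 in the second pair (0.65 to 2.98), and as both intervals include 1 no direction is read from it.

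Of 5022 genes counted in dendritic cells, 13 were at least 2-fold higher (0.259%), 6 at least 2-fold lower (0.119%), and 19 in either direction (0.378%). With a stricter gate the split turned, with 8 of 21 genes higher. Ccl17 was at 70.9 CPM in untreated cells and 205 CPM with the agonist (log2 ratio 1.41, 1.13 to 1.69), and was found in 13.5% and 27.6% of cells, against 0.203% and 0.332% of T cells, at dendritic medians of 10720 and 9494 UMIs. Its 10 leading cells held 70.0% of the untreated and 56.2% of the agonist UMIs. Lyz2, the lysozyme of macrophages and granulocytes, was at 144 and 451 CPM (1.58, 1.38 to 1.78), found in 24.8% and 35.5% of cells, and its 10 leading cells held 56.9% and 71.1% of the UMIs. Spp1 was at 154 and 477 CPM (1.57, 1.37 to 1.76), with over 99% of its UMIs in 10 cells of each library. Few cells thus held most UMIs of all 3 genes, and those of Spp1 nearly all.

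At the lower end, Cxcl9, a ligand of CXCR3 that interferon-γ induces, was at 203 CPM in untreated dendritic cells and 76.6 CPM with the agonist (log2 ratio -1.30, -1.59 to -1.01). Dusp2, a phosphatase that limits MAP kinases, was at 153 and 58.3 CPM (-1.26, -1.58 to -0.93). Il1rn, the interleukin-1 receptor antagonist, was at 133 and 56.6 CPM (-1.10, -1.44 to -0.77). Ifitm1 was at 3681 and 1826 CPM (-1.01, -1.07 to -0.94), lower in dendritic cells as in macrophages or monocytes. The glutathione transferases Gstt3 and Gstt1 were lower in both pairs of libraries, at -1.38 and -0.95 here and at -1.26 and -1.54 in the second pair. Of the 8 named dendritic genes counted in the second pair 7 had the same direction there, against 63.3% of all genes.

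The interferon lists were lower in the class as a whole. The interferon-γ list had a median of -0.34 over 15 members with 1 past 2-fold (Cxcl9), and the type I interferon list a median of -0.31 over 19, against -0.01 for all genes. All 11 MHC class II genes were below 0, with a median of -0.34. In the second pair the interferon-γ, type I interferon and MHC class II lists had medians of -0.48, -0.44 and -0.01. Among activation genes the median was -0.39 over 13 members. The costimulatory ligand Tnfsf9 was at 126 and 68.8 CPM (-0.78, -1.11 to -0.46) and the p40 subunit Il12b at 242 and 155 CPM (-0.60, -0.84 to -0.37), while Cd80 stood higher, at 232 and 339 CPM (0.52, 0.33 to 0.72).

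These differences were larger in the mature cells (150 untreated, 104 with the agonist). There the MHC class II list had a median of -0.98 over 10 members with 5 at least 2-fold lower, the interferon-γ list -0.93 over 9 with 3, and the type I interferon list -0.75 over 13 with 5. Of all 2301 genes counted in mature cells 12 were at least 2-fold higher and 47 lower, with a median of -0.04. In cDC1 the MHC class II median was -0.11, and in Cd209a cells 0.06. H2-Ab1 was at 4300 CPM in untreated mature cells and 1893 CPM with the agonist (log2 ratio -1.18), H2-Aa at 6503 and 3342 CPM (-0.96), Cd74 at 12281 and 6574 CPM (-0.90), and their master regulator Ciita at 162 and 70.7 CPM (-1.10).

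Interferon-induced genes stood lower in the same cells. Cxcl9 was at 325 CPM in untreated mature cells and 49.9 CPM with the agonist (log2 ratio -2.48), Isg15, a ubiquitin-like protein, at 1120 and 365 CPM (-1.59), and Cxcl10 at 105 and 22.9 CPM (-1.80). Genes of maturation, of which Fscn1, Ccl22 and Ccr7 also set the gate, had ratios from -0.38 to 0.11. Fscn1, the actin bundler of mature dendritic cells, had a log2 ratio of 0.06, Ccl22 0.04 and the costimulator Cd86 -0.10, and the lymph-node homing receptor Ccr7 was at 3558 and 2881 CPM (-0.30). Cd83, a surface protein of mature dendritic cells, was at 1202 and 921 CPM (-0.38, -0.54 to -0.22).

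The lower MHC class II level could be followed cell by cell. The summed level of H2-Aa, H2-Ab1, H2-Eb1 and Cd74 had a median of 16552 CPM over untreated mature cells and 6142 CPM with the agonist. It was below 5000 CPM in 30.7% of untreated and 48.1% of agonist mature cells, at medians of 9467 and 8342 UMIs per cell. In cDC1 the medians were 34548 and 34195 CPM, and in Cd209a cells 34966 and 41478 CPM, so the lower value was seen in mature cells and not in these subsets. In the second pair the median over mature cells was 27224 CPM with the STING agonist and 18176 CPM with both agonists. There 28.0% and 29.6% of cells were below 5000 CPM. In those mature cells H2-Ab1 had a log2 ratio of -0.06 and Cxcl9 0.05, while the interferon lists stood lower over all dendritic cells of that pair.

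**Figure D4:**
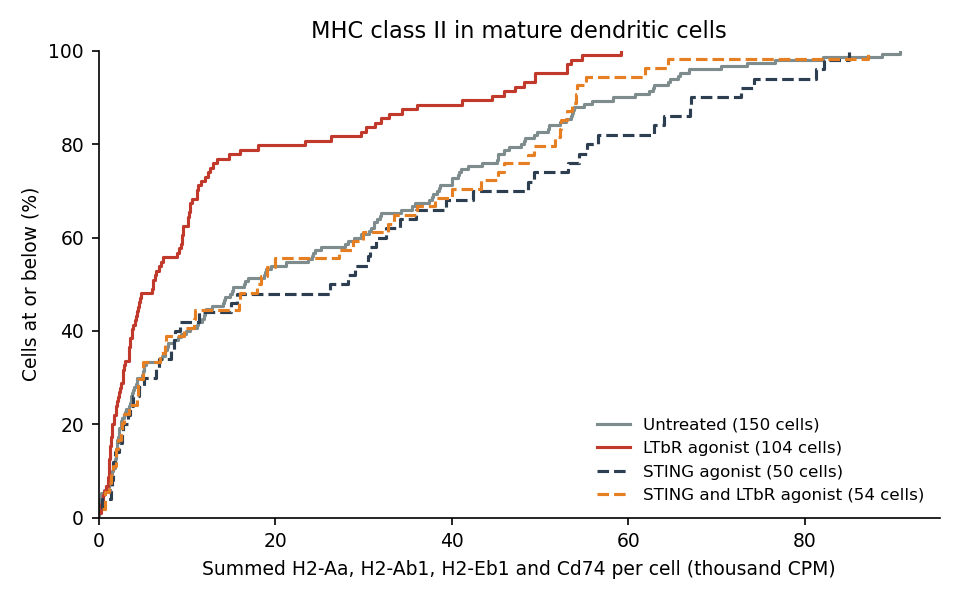
Cumulative share of mature dendritic cells (%) by the summed level of H2-Aa, H2-Ab1, H2-Eb1 and Cd74 per cell (CPM in units of 1000, linear axis), with 1 line for each of the 4 libraries. The line of the LTbR agonist library lies above the other lines over most of the range, with medians of 6142 and 16552 CPM.

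NK cells kill stressed and transformed cells without prior priming, and they feed chemokines to other leukocytes. Of 3501 genes counted, 7 were at least 2-fold higher (0.2%), 12 at least 2-fold lower (0.343%), and 19 in either direction (0.543%). With a stricter gate the split turned here too, with 9 of 14 genes higher. Of the 10 named NK genes counted in the second pair 5 had the same direction there, against 56.5% of all genes. Ccl5, lower in macrophages or monocytes, was higher here, at 2765 CPM in untreated NK cells and 6262 CPM with the agonist (log2 ratio 1.18, 1.11 to 1.25). The CXCR3 ligand Cxcl10 was at 15.1 and 135 CPM (2.53, 1.96 to 3.07), found in 4.41% and 13.9% of NK cells, at medians of 5126 and 4513 UMIs, and in 4.93% and 9.09% of T cells. Its 10 leading cells held 61.3% of the agonist UMIs. In the second pair Ccl5 had a log2 ratio of 0.28 and Cxcl10 of 3.07.

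Cell cycle genes stood higher in a small set of NK cells. Mki67, the proliferation antigen, was at 17.3 and 97.1 CPM (log2 ratio 1.97, 1.39 to 2.53), the tubulin regulator Stmn1 at 15.1 and 84.4 CPM (1.91, 1.31 to 2.49), and the topoisomerase Top2a at 22.6 and 62.4 CPM (1.15, 0.56 to 1.73). Of the agonist Mki67 UMIs 85.0% were held by 10 cells. Of the 6 counted members of the cell cycle list 3 were at least 2-fold higher, with a median of 0.91, which was 0.43 after thinning and 0.48 with equal weight of cells. In the second pair the median was -0.10, so the higher level was seen in 1 pair only.

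Granzymes stood apart from each other. Gzmc was at 2053 CPM in untreated NK cells and 679 CPM with the agonist (log2 ratio -1.58, -1.71 to -1.45), Gzmb at 2371 and 1283 CPM (-0.88, -0.98 to -0.78) and the pore-former Prf1 at 735 and 540 CPM (-0.44, -0.61 to -0.26). Gzma was at 3909 and 4937 CPM (0.34, 0.27 to 0.40) and Nkg7, a granule membrane protein, at 2186 and 2467 CPM (0.17, 0.08 to 0.27). Gzmc and Gzmb were thus lower, and Gzma and Nkg7 higher. Gzmc was found in 56 untreated and 57 agonist NK cells, and 10 cells held 72.3% and 66.4% of its UMIs. Gzmd had 102 UMIs in 5 untreated NK cells and 11 in 2 agonist cells. Gzmf had 469 UMIs in 4 untreated NK cells and 0 with the agonist. The cytotoxic list had a median of -0.44 over 11 members, 3 of them at least 2-fold lower (Gzmc, Gzmd and Gzmf), against 0.00 for all genes. In the second pair its median was 0.06, and Gzmb had 0.65 and Gzmc 0.16.

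Receptors and maturation genes of NK cells had medians of -0.01 over 15 and 0.00 over 12 members. NK cells with an UMI of a Ly49 receptor were 79.3% of untreated and 85.8% of agonist NK cells (ratio 1.08), and those with Eomes 60.4% and 59.4%. Among Ly49 cells Ccl5 was at 3158 and 6579 CPM (1.06), and Gzmb had -0.82, Gzmc -1.26, Mki67 2.20 and Cxcl10 2.34. As these cells are most of the class, their ratios cannot stand far from those of the class. In the 47 untreated and 58 agonist cells without a Ly49 UMI the cytotoxic median was -0.05 over 8 members, with 3 at least 2-fold lower. The maturation median there was -0.59 over 4 members. MHC class II genes and Cst3 were lower in NK cells, H2-Aa at 136 and 30.5 CPM (-1.85, -2.32 to -1.38), but 10 untreated cells held 91.7% of its UMIs. With a stricter gate the log2 ratio of H2-Aa was 0.82, the opposite direction. The 6 macrophage markers summed to 12.0 and 11.7 CPM in the class and the 7 dendritic markers to 31.6 and 31.9 CPM, sums that the gate itself holds low. The part of other cells in this difference was not tested.

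**Figure D5:**
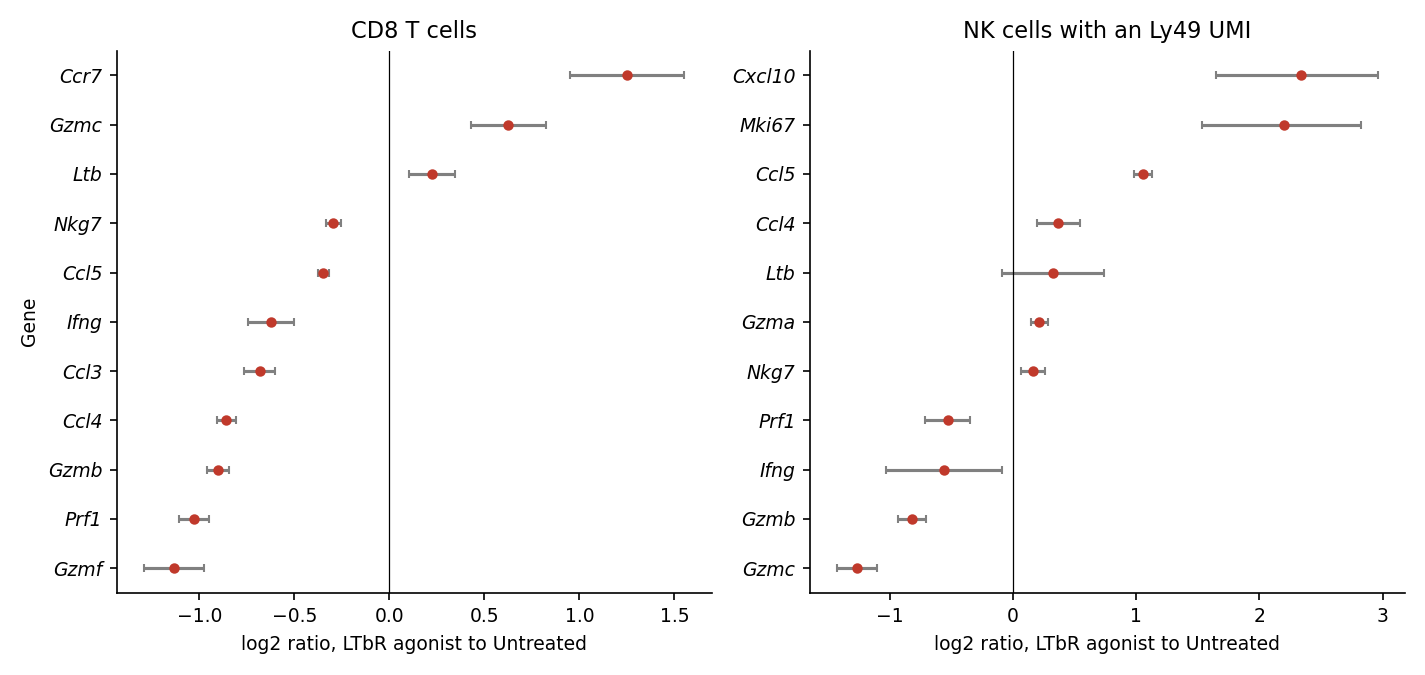
Log2 ratio of LTbR agonist to untreated for chosen effector, chemokine and homing genes in CD8 T cells (left) and in NK cells with a Ly49 UMI (right), with counting intervals as bars and 1 library a side. Prf1, Gzmb and Ccl4 lie below 0 in CD8 T cells and Ccr7 above, while Ccl5 lies at 1.06 and Gzmc at -1.26 in NK cells.

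A smaller part of the T cells were CD8 cells with the agonist. CD8 cells were 57.2% of untreated and 42.3% of agonist T cells (ratio 0.740, 0.670 to 0.817), and CD4 cells 16.8% and 26.1% (ratio 1.55, 1.28 to 1.89). Cells with Foxp3, the factor of regulatory T cells, were 6.89% and 12.7% (ratio 1.85, 1.35 to 2.54), and γδ T cells 7.09% and 7.59%. After thinning the ratios were 0.651 for CD8, 1.56 for CD4 and 2.25 for regulatory cells. In the second pair the ratios were 1.09 for CD8 cells (0.98 to 1.21), 0.878 for CD4 cells (0.72 to 1.07) and 1.14 for regulatory cells (0.78 to 1.69), so that the lower CD8 share was seen in 1 pair only.

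Of 8516 genes counted in T cells, 16 were at least 2-fold higher (0.188%), 21 at least 2-fold lower (0.247%), and 37 in either direction (0.434%). Killing genes were lower. Prf1 was at 920 CPM in untreated T cells and 349 CPM with the agonist (log2 ratio -1.37, -1.45 to -1.30), and was found in 51.5% and 33.2% of T cells, against 1.51% and 0.828% of macrophages or monocytes. Gzmb was at 1789 and 907 CPM (-0.97, -1.02 to -0.92), Ifng at 348 and 186 CPM (-0.87, -0.98 to -0.76), and the chemokine Ccl4 at 2386 and 1082 CPM (-1.13, -1.18 to -1.09). The cytotoxic list had 12 of 14 members below 0 and 4 at least 2-fold lower, with a median of -0.69, against 0.02 for all genes. The 4 were Prf1, Gzmd, Gzme and Gzmf. Gzmd, Gzme and Gzmf were found in 47, 48 and 96 untreated and 12, 12 and 36 agonist T cells. With the agonist 10 cells held 99.1%, 98.4% and 92.6% of their UMIs.

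The same genes were compared among CD8 cells alone. There Prf1 was at 1306 CPM in untreated cells and 636 CPM with the agonist (log2 ratio -1.03), Gzmb at 2326 and 1239 CPM (-0.90), Ccl4 at 3183 and 1751 CPM (-0.86) and Ifng at 451 and 289 CPM (-0.62). The cytotoxic median was again -0.69 among CD8 cells, with 3 of 14 members at least 2-fold lower, and -0.22 among CD4 cells. Ccr7, a homing receptor of naive and central memory cells, stood higher in CD8 cells, at 21.1 and 64.2 CPM (1.25).

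Some exhaustion receptors were lower over all T cells, of which CD8 cells were a smaller part with the agonist. Havcr2 (TIM-3) was at 268 and 151 CPM (log2 ratio -0.79, -0.91 to -0.67), Lag3 at 549 and 336 CPM (-0.69, -0.78 to -0.61) and Pdcd1 (PD-1) at 384 and 248 CPM (-0.61, -0.71 to -0.51). Among CD8 cells alone their log2 ratios were -0.67, -0.45 and -0.34. The whole checkpoint and memory list had a median of 0.08 over 25 members with 14 above 0, 1 at least 2-fold higher and 0 lower, and 0.08 among CD8 cells. Within it Ctla4 (0.08) and Tigit (-0.03) stood near 0 and the memory factor Tcf7 above (0.32). Helper and regulatory genes had a median of 0.49 with 20 of 22 members above 0, and 0.26 within CD4 cells. Il13 was at 4.32 and 73.7 CPM (2.55, 2.31 to 2.76), and 10 cells held 95.4% of its agonist UMIs. Foxp3 was at 42.4 and 77.1 CPM (0.73, 0.53 to 0.94).

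Genes outside these lists stood at the ends too. Serpine2, a protease inhibitor, was at 167 and 40.7 CPM (log2 ratio -1.80, -1.98 to -1.62), Styk1 at 130 and 43.7 CPM (-1.38, -1.56 to -1.20) and Gm156 at 342 and 89.9 CPM (-1.82, -1.95 to -1.69). Penk, which encodes enkephalin, was at 105 and 263 CPM (1.25, 1.11 to 1.38), and Itgae, the integrin of tissue-resident T cells, at 22.6 and 57.8 CPM (1.05, 0.82 to 1.29). Of the Penk UMIs 10 cells held 66.0% in the untreated and 65.9% in the agonist library. The lower Serpine2 and Spp1 and the higher Penk had the same direction in the second pair, at -0.80, -1.13 and 0.90. All 9 of the lowest named T cell genes counted in the second pair had the same direction there, and 5 of the 10 highest, against 58.6% of all genes.

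Neutrophils, the first cells at sites of injury, were few (196 untreated, 315 with the agonist) and shallow. Of 1069 genes counted, 30 were at least 2-fold higher (2.81%), 14 at least 2-fold lower (1.31%), and 44 in either direction (4.12%), shares far above those of the deeper classes. Wfdc17, a protease inhibitor-like protein of activated phagocytes, was at 1096 CPM in untreated neutrophils and 5474 CPM with the agonist (log2 ratio 2.31, 2.14 to 2.48), and was found in 41.8% and 74.9% of neutrophils, against 2.50% and 2.66% of T cells. Ccl4 was at 1577 and 4224 CPM (1.42, 1.26 to 1.57) and Cxcl3, which draws further neutrophils, at 709 and 1783 CPM (1.32, 1.09 to 1.55). Ifitm1 was at 2155 and 5370 CPM (1.31), higher where macrophages, dendritic, T and NK cells were lower.

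The interferon lists divided in neutrophils. Of 15 counted members of the type I interferon list 3 were at least 2-fold higher, with a median of 0.44. Ifit1 was at 161 and 377 CPM (log2 ratio 1.17, 0.70 to 1.66) and Rsad2 (viperin) at 598 and 1264 CPM (1.07, 0.81 to 1.33). Of 6 members of the interferon-γ list 3 were at least 2-fold lower, with a median of -0.80. Cxcl10 was at 1180 and 503 CPM (-1.21, -1.48 to -0.95) and Gbp2 at 673 and 314 CPM (-1.08, -1.42 to -0.73). These too rest on few cells, as 10 cells held 67.5% of the untreated and 76.3% of the agonist Cxcl10 UMIs. The shares were 45.5% and 43.3% for Gbp2, 61.0% and 39.4% for Ifit1, and 43.5% and 37.1% for Rsad2. Genes of neutrophil granules and function had a median of 0.49 over 17 members with 6 at least 2-fold higher, but 3 of the 6 rest on a handful of cells. Camp was counted in 1 agonist cell, Ngp in 1 untreated and 5 agonist cells, and Ltf in 9 and 14 cells with 97.5% of the agonist UMIs in 10. Lars2, a mitochondrial tRNA ligase, was at 8076 and 2764 CPM, with 76.9% of the untreated UMIs in 10 cells. In the second pair, where the library with both agonists held 56 neutrophils, Wfdc17 had -0.89 and Ccl4 -1.38. The type I interferon list had a median of 0.10 there and the interferon-γ list -0.37. Of all 972 neutrophil genes counted in both pairs 38.3% had the same direction.

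B cells were the smallest class described here, with 51 untreated and 132 agonist cells. Of 1029 genes counted, 21 were at least 2-fold higher (2.04%), 12 at least 2-fold lower (1.17%), and 33 in either direction (3.21%). The median of all genes was 0.14 in this class, and once ratios were centred on it 17 of 33 genes past 2-fold were the higher ones. S100a4, a calcium-binding protein of memory and activated lymphocytes, was at 85.1 and 365 CPM (log2 ratio 1.98, 1.31 to 2.68), and Sox5, a transcription factor, at 193 and 594 CPM (1.57, 1.09 to 2.07). The untreated library held 26 S100a4 and 59 Sox5 UMIs, 100% and 96.6% of them in 10 cells. After thinning, Sox5 was found in 17.6% of untreated and 16.7% of agonist B cells. Fos was at 478 and 165 CPM (-1.48, -1.96 to -1.01), and Xbp1, which drives plasma cell differentiation, at 462 and 180 CPM (-1.31, -1.78 to -0.84) with 99.3% of the untreated UMIs in 10 cells. S100a4 (1.75) and Fos (-1.37) had the same direction in the second pair and Xbp1 did not (2.11). There the STING agonist library held 13 B cells, with 2 UMIs of S100a4 and 2 of Xbp1.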

How the data were processed

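Live CD45+ cells of pooled KPC tumours were counted by the authors with Cell Ranger 7.1.0 against mm10 from 10x Genomics 5-prime libraries. The deposited file holds raw counts of UMIs for 32285 genes and 24839 barcodes, 4 libraries in all, and groups follow from the barcode number that the labels give. Barcodes outside the study's quality limits were still in the file, and these limits were applied here. Doublets were not called, and cells with markers of several classes stayed out of every class. NK cells also needed an Ncr1 or Klrb1c UMI and no T marker. Subsets of dendritic cells and of macrophages or monocytes rest on at least 2 UMIs of subset markers (for dendritic cells of 1 subset only), and those of T and NK cells on 1 UMI. For each class of a library, the counts of a gene were added over cells and divided by the total of that class to give CPM. Log2 ratios were formed with 10 CPM on both sides, for genes with at least 100 UMIs in 1 of the libraries compared. A CPM ratio cannot tell fewer molecules of a gene from more of the others. Named genes are the 10 highest and 10 lowest ratios in macrophages or monocytes, dendritic, NK and T cells and the 5 at each end in neutrophils and B cells, found in at least 5% of cells and without class markers, antigen receptor, mitochondrial, ribosomal and haemoglobin genes and Xist, plus members of the gene lists. The comparison, members, rule and lists were chosen with earlier results of these data known. Ratios and intervals were tested on simulated Poisson counts summed over a class. These hold no single cells, so the simulation cannot show how UMIs gathered in few cells widen an interval. Alternatives covered the gate, the mitochondrial limit, thinning to 1000 UMIs, pseudocounts of 1 and 50 CPM, a minimum of 20 UMIs, equal weight of cells and centring. Python 3.11.15, numpy 2.4.6, scipy 1.17.1 and pandas 2.3.3 were used. Some genes and a motif are not reported here.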

Additional observations from a re-analysis of the deposited data

Results flagged for a closer look

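For 4 named genes the LTbR agonist stood on opposite sides of its control with and without the STING agonist, each by at least 2-fold. The difference was not tested, since each side is 1 library. In NK cells H2-Aa had a log2 ratio of -1.85 for LTbR agonist to untreated and 2.37 for both agonists to the STING agonist, and Cd74 had -1.55 and 1.00. Of the untreated UMIs 10 cells held 91.7% for H2-Aa and 82.4% for Cd74, and with a stricter gate the ratios to untreated were 0.82 and 0.65, the same direction as in the second pair. In neutrophils Ccl4 had 1.42 and -1.38, the latter with 56 neutrophils in the library with both agonists. In B cells Xbp1 had -1.31 and 2.11, the latter with 13 B cells in the STING agonist library.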

How the results depend on the processing

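No paired analysis was possible because each group is 1 library. Of 24 class share values under the alternatives 22 stayed within the counting interval of the value above; thinning to 1000 UMIs gave ratios of 0.627 for macrophages or monocytes and 0.971 for T cells. Of 14 subset values 9 stayed within it; thinning gave 0.651 for CD8 cells, 2.03 for cDC1 (7 against 5 cells), 0.790 for C1q cells, 1.04 for monocyte cells and 0.483 for cells with both.

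The count of genes past 2-fold moved by over 1.5 times in 16 of 48 cases. A pseudocount of 1 CPM gave 99 genes in macrophages or monocytes, 33 in dendritic and 104 in T cells. A pseudocount of 50 CPM gave 7, 3 and 9, and 26 in neutrophils. A minimum of 20 UMIs gave 35 in dendritic cells, 57 in NK cells, 227 in neutrophils (38.8% higher, against 68.2%) and 234 in B cells. Thinning gave 4 in dendritic cells, 4 in NK cells, 19 in T cells, 13 in neutrophils and 9 in B cells, with fewer genes counted.

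All 100 named ratios kept their direction in 5 settings. In NK cells a stricter gate turned Cst3 (0.23), H2-Eb1 (0.85), H2-Aa (0.82), H2-Ab1 (0.96) and Cd74 (0.65). The mean within subset gates turned Gzmf in T cells (0.72), and thinning Il1bos in dendritic cells (0.54). Of 168 list medians 158 moved by no more than the median half-width of their members' counting intervals. These are wide in NK cells, where the cell cycle median went from 0.91 to 0.43 thinned and 0.48 with equal weight. The alternative activation list in macrophages or monocytes had 0.75 with 1 CPM, 0.23 with 50 CPM, 0.65 thinned and 0.71 with equal weight of cells, and their MHC class II list -0.35 both thinned and with equal weight. The NK cytotoxic list had -0.17 under the stricter gate, the T helper and regulatory list 0.24 with 50 CPM, and T homing 0.26 with 50 CPM and 0.26 thinned. The causes of these shifts were not tested. Few B cells and few UMIs per neutrophil left 1029 and 1069 genes counted in these classes, against 9617 in macrophages or monocytes.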

Other observations

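Factors that myeloid cells offer to B cells had no common direction with the LTbR agonist. In macrophages or monocytes 7 of 11 members of a list of B cell help and survival factors were counted, with 5 below 0, 2 above 0, a median log2 ratio of -0.20 and none past 2-fold. Tnfsf13b (BAFF, a survival factor of B cells) was at 16.9 CPM untreated and 13.2 CPM with the agonist (-0.21, -0.39 to -0.04), and Tnfsf13 (APRIL) at 52.9 and 57.1 CPM (0.09, -0.03 to 0.22). Il6, which helps plasma cells, was at 20.1 and 32.8 CPM (0.51, 0.35 to 0.67). These cells are leukocytes, and stromal sources were not sorted.

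The genes of MHC class I presentation were lower in macrophages or monocytes by a small amount, with 11 of 11 below 0 and a median of -0.22, and of -0.15 in the second pair. The peptide transporter Tap2 was at 188 and 142 CPM (-0.38, -0.46 to -0.29). In NK and T cells the medians were 0.00 and -0.05. The hypoxia and glycolysis list had medians of 0.05 in macrophages or monocytes, -0.32 in dendritic cells and -0.25 in NK cells. Cell cycle genes had 17 of 18 members above 0 in T cells, with a median of 0.25, and 11 of 12 in macrophages or monocytes, with a median of 0.18, none past 2-fold in either class.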
